A study of Caenorhabditis elegans with 2 samples.

Results

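The 34 germ granule and germline RNA regulator genes of Caenorhabditis elegans described here were taken from a list of gene symbols, and they are 34 of 19985 annotated protein-coding genes. Their promoters were searched for binding of LIN-35, the worm relative of the retinoblastoma protein, by ChIP-seq, which sequences DNA recovered with an antibody. Strain YL468 was used as young adults of mixed sex, and it carries unc-119(ed3)III and the insertion vrIs93. That insertion holds LIN-35:GFP:FLAG with the lin-35 3'UTR under the pMEX-5 promoter, together with unc-119(+) as a rescue gene. There was 1 group with 2 biological replicates of whole organisms, so there was no second condition, and the labels do not say that the replicates were separate cultures. The labels name the antibody lin-35 and the target eGFP-lin-35, so the epitope is not settled. Chromatin came from germ line and soma alike, and the fusion protein was driven by a promoter used in the germ line, so a peak cannot be assigned to a tissue here.

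P granules are condensates of RNA and protein that mark the germ line of the worm from the zygote to the adult gonad. PGL and GLH proteins form their core, and MEG proteins control their assembly in the embryo. Around them works a set of RNA-binding proteins that hold maternal mRNAs silent, or switch them on, as germ cells leave the stem cell pool, enter meiosis and become oocytes and then embryos. LIN-35 is a pocket protein that acts in the DREAM complex with E2F and DP proteins and with LIN-54. E2F/DP and LIN-54 contact DNA directly, at E2F sites and at CHR elements, and loss of the complex is known to turn on germline genes, P granule genes among them, in somatic cells of the worm.

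The 4 sequences below carry a match to an E2F string near the best LIN-35 summit of a member, and they are shown because E2F sites are one kind of DNA element that the DREAM complex contacts. Each is 30 bases of the WBcel235 assembly (ce11), written 5′ to 3′ on the gene's own strand with the match in capitals. The match upstream of cgh-1, at chrIII:7498627-7498656 on the minus strand, lay 64 bp from the summit. That of gld-3, at chrII:7132396-7132425 on the plus strand, lay 68 bp from it. That of puf-3, at chrIV:13512339-13512368 on the minus strand, lay 13 bp from it, and that of puf-11, at chrIV:6421386-6421415 on the plus strand, 88 bp. In the pooled list these peaks ranked 107 (cgh-1), 15928 (gld-3), 1070 (puf-3) and 2031 (puf-11). At gld-3 the replicate summits lay 118 and 310 bp from the pooled one, so its place is loosely set.
cgh-1: ccgccattttgTTTCGCGCgttggctgagt
gld-3: caaggagattgTTTGGCGCccaattcctcg
puf-3: ttcgtttttgcGCGGGAAAttttggatttt
puf-11: tttcattttgcGCGGGAAAttttgggattt
The capitals of puf-3 and puf-11 are the reverse complement of TTTCCCGC. These 2 stretches were identical at 25 of 30 bases, so they are not independent examples. That count includes the capitals, by which both stretches were picked. The remaining member with a match, glh-2, is named without its sequence.

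Binding was read from the authors' peak lists, in which each peak has a signal, a value whose scaling is not stated and which was compared only within a list. The pooled list of both replicates holds 30000 peaks with signals of 3.97 to 478.3. It includes background by the authors' own description. The thresholded list holds the 550 peaks that passed the authors' test of reproducibility (irreproducible discovery rate, IDR), and these were the 550 highest of the pooled list. The list of replicate 1 has 30000 peaks and that of replicate 2 has 18226. No list gives read counts, so the depth is unknown and the pooled signals carry no error. The best peak of a gene was the highest pooled peak with its summit between 1000 bp upstream and 300 bp downstream of any transcript start.

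A pooled peak was found in the promoter window of 26 of 34 members (76.5%), beside 42.9% of all protein-coding genes. The deposited −log10 q values were low, 0.106 to 1.16, for the best peaks of pgl-2, glh-3, meg-1, mex-3, gld-1, gld-2, gld-3 and fbf-1. The other members with a peak had 1.53 or higher, and shares by q value were not computed for coding genes. Of the 34, 12 members (35.3%) had a peak among the 3000 highest, beside 9.56% of coding genes. Among the 1000 highest peaks the counts were 7 members (20.6%) and 4.51% of coding genes. The thresholded list held a promoter peak of 4 members (11.8%), cgh-1, spn-4, mex-1 and nos-3, and of 2.77% of coding genes. The median rank of the 26 best peaks was 3194, against 10362 for the 8580 coding genes with a peak, and the median signals were 11.6 and 7.38. With the 8 members lacking a peak placed last, the middle members ranked 4530 and 4742, while only the highest 10% of all coding genes reached rank 3234. These are counts and medians of a list chosen with results of these data in view, and no test was made of them.

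**Figure D1:**
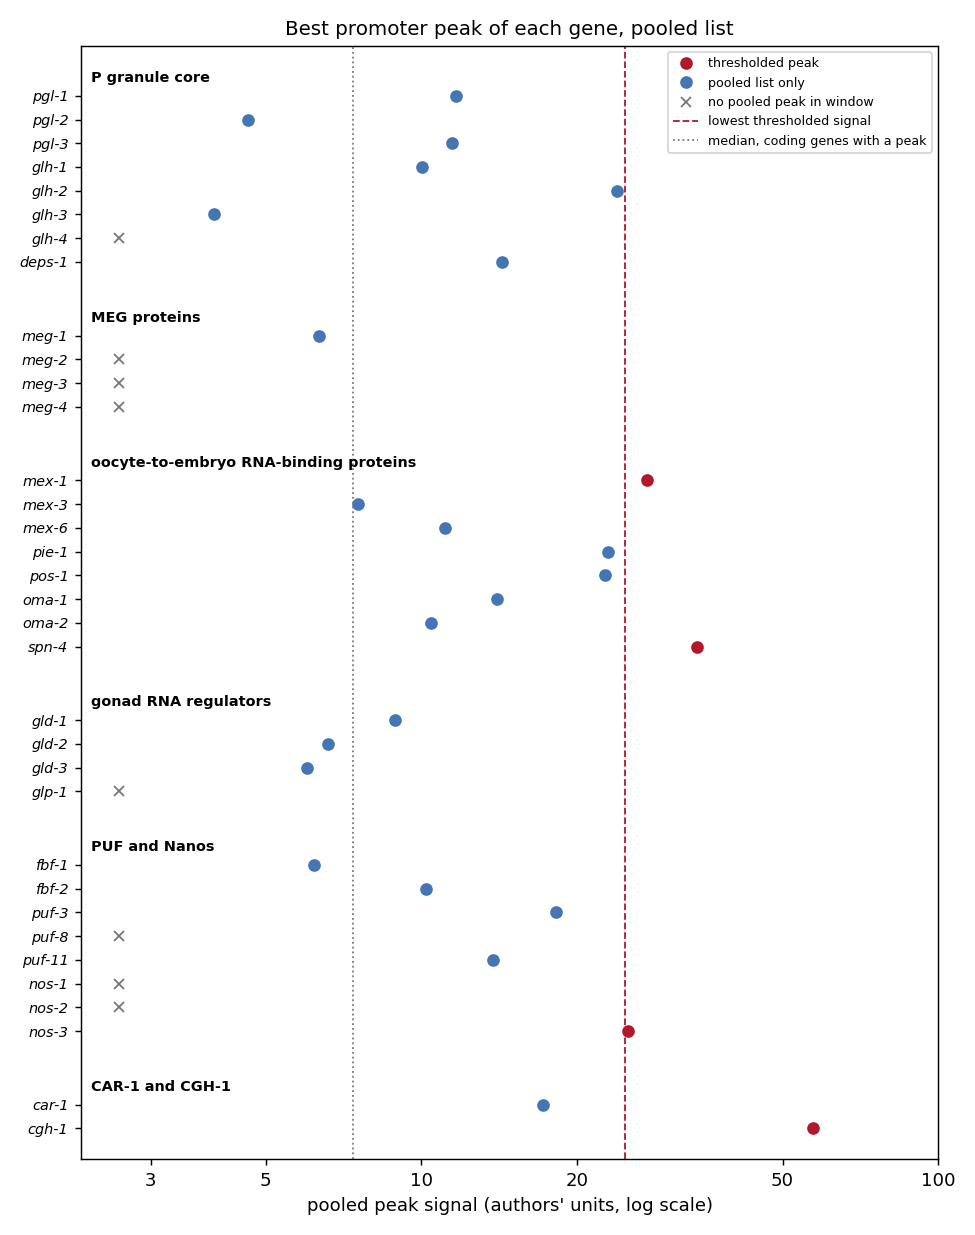
Signal of the best promoter peak of each of the 34 genes in the pooled list (x axis, authors' units, log scale), with genes grouped by role, red points for thresholded peaks and crosses for genes without a pooled peak. The 4 red points start at 25.1, glh-2, pie-1 and pos-1 lie just below the lowest thresholded signal of 24.8, and 8 genes have no point.

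**Figure D2:**
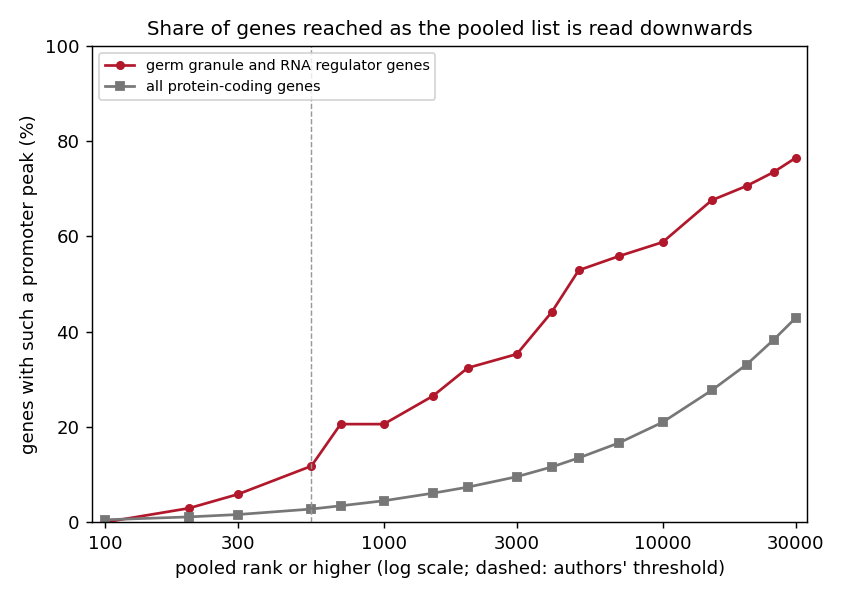
Share of the 34 genes and of all protein-coding genes (y axis, percent) with a promoter summit at or above each pooled rank (x axis, log scale). At rank 3000 the germline genes reach 35.3% and the coding genes 9.56%, and the lines are cumulative, so neighbouring points are not independent.

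The plot of signals by gene shows that the members of some roles spread widely, from 3.98 to 23.95 in the P granule core, while the 3 gonad RNA regulators with a peak lay between 6.01 and 8.92. The cumulative plot shows that the members' line lies above that of all coding genes at the ranks computed from 200 to 30000. The genes just outside the threshold were close to it. The lowest thresholded signal was 24.8. Inside it, nos-3 had 25.1 (rank 535), and outside it glh-2 had 23.95 (rank 607), pie-1 had 23.0 (rank 656) and pos-1 had 22.7 (rank 679).

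The highest peak of the set belonged to cgh-1, which encodes a DEAD-box RNA helicase of germline mRNA-protein particles. It lay at chrIII:7498400-7498755 with a signal of 57.2 (rank 107), and its summit was 746 bp upstream of the start, in intergenic sequence. The same interval had a peak of 36.2 (rank 147) in replicate 1 and of 18.5 (rank 110) in replicate 2, so it stood high in both lists. No other coding gene had the summit in its window. The Sm-like protein CAR-1 is found in the same particles as CGH-1. The best peak of car-1, at chrI:12903457-12903812, had a signal of 17.2 (rank 1213), 11.2 (rank 1892) in replicate 1 and 3.26 (rank 8991) in replicate 2. Its summit was 835 bp upstream and nearer to the start of coa-5, whose window it shares.

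RNA-binding proteins of the oocyte-to-embryo transition had a pooled peak for 8 of 8 genes, with signals of 7.55 to 34.1, and 5 of them were among the 3000 highest. The peak of spn-4, an RNA-binding regulator of maternal mRNAs in the early embryo, lay at chrV:6785127-6785482 with a signal of 34.15 (rank 289). In replicate 1 it had 31.2 (rank 195), and in replicate 2 it had 3.33 (rank 8650). Here the replicates did not give the gene a like place, and the peak entered the thresholded list although it was low in replicate 2. Its summit was 402 bp upstream of spn-4, in the 548 bp between this gene and the divergent spe-39, and nearer to the start of spe-39.

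The CCCH zinc finger gene mex-1, needed for germline fate in the early embryo, was the only one of the 34 with more than 1 thresholded promoter peak. The first lay at chrII:11967552-11967907 with a signal of 27.35 (rank 450), 907 bp upstream, with 16.2 (rank 734) in replicate 1 and 11.3 (rank 381) in replicate 2. The second lay at chrII:11968192-11968547 with a signal of 27.3 (rank 452), 267 bp upstream, with 22.2 (rank 369) in replicate 1 and 5.35 (rank 2932) in replicate 2. The replicates thus differed in which of the peaks was the higher. Both summits lay in the window of W03C9.5, and the first also in that of rab-7, a GTPase gene of the endosome, so the peaks cannot be assigned to mex-1 alone.

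The zinc finger protein PIE-1 represses transcription in the embryonic germ lineage. The best peak of pie-1, at chrIII:12426070-12426425, had a signal of 23.0 (rank 656), with 9.51 (rank 3040) in replicate 1 and 6.49 (rank 1740) in replicate 2. It lay 645 bp upstream of the nearest start and was not shared. A further 3 pooled summits fell in the windows of the gene's starts, at ranks 1946, 9362 and 10631. POS-1, a zinc finger protein that controls translation of maternal mRNAs, had its best peak at chrV:8413584-8413939, 324 bp upstream. Its signal was 22.7 (rank 679), with 6.36 (rank 8789) in replicate 1 and 6.68 (rank 1592) in replicate 2, and the start of vha-18, a vacuolar ATPase gene, was nearer.

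OMA-1 and OMA-2 are closely related zinc finger proteins needed for oocyte maturation. The best peak of oma-1, at chrIV:8888544-8888899 and 254 bp upstream, had a signal of 14.0 (rank 1964) and was matched by a peak of 11.3 (rank 1841) in replicate 1. No peak of replicate 2 overlapped it, though replicate 2 had one of 2.25 (rank 15805) elsewhere in the window, 840 bp upstream. The best peak of oma-2, 424 bp upstream, had 10.5 (rank 4212) and 6.32 (rank 8921) in replicate 1, again with none in replicate 2. In both genes the best pooled peak was thus overlapped in replicate 1 only, and the list of replicate 2 is the shorter. The reverse held for mex-6, a zinc finger gene that acts with mex-5 in zygote polarity, with a pooled signal of 11.1 (rank 3576), no peak in replicate 1 and 3.53 (rank 7678) in replicate 2. The KH-domain gene mex-3 had 7.55 (rank 9829) in an intron, and no replicate peak overlapped it. Elsewhere in the windows of mex-3, replicate 1 had a peak of 7.52 (rank 5789).

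Among the core P granule genes, 7 of 8 had a pooled peak, with signals of 3.98 to 23.95, and 2 were among the 3000 highest. GLH proteins are relatives of the RNA helicase Vasa. The peak of glh-2, at chrI:6513754-6514109, had its summit 4 bp downstream of the start, in the 5'UTR, and shared it with the window of C55B7.11. Its signal was 23.95, with 17.3 (rank 622) in replicate 1 and 10.2 (rank 513) in replicate 2. The gene thus ranked alike in both lists, among the 550 highest of replicate 2 and just outside those of replicate 1. The other GLH genes had lower values: glh-1 had 10.05 (rank 4742), glh-3 had 3.98 (rank 29911) and glh-4 had no promoter peak in any list.

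DEPS-1 is a P granule component. Its gene had a peak at chrI:506274-506629 with its summit 21 bp upstream of the start, in the window of Y65B4BL.4 as well. The signal was 14.3 (rank 1854), with 9.54 (rank 3002) in replicate 1 and 5.45 (rank 2792) in replicate 2. PGL proteins bind RNA and form the scaffold of the granules. Their best peaks had signals of 11.7 (rank 3113) for pgl-1, 11.5 (rank 3275) for pgl-3 and 4.63 (rank 24652) for pgl-2. The first 2 were overlapped in both replicates, but neither summit lay in open intergenic sequence. That of pgl-1 was 827 bp upstream in coding sequence of him-3, and that of pgl-3 was 570 bp upstream in the 3'UTR of hil-4. At pgl-1 the replicate 1 peak had 4.53 (rank 17144), its summit 347 bp from the pooled one, and replicate 2 had 4.53 (rank 4440). At pgl-3 the replicates had 6.89 (rank 7232) and 4.11 (rank 5546). A second pooled peak of pgl-1, of 11.1 (rank 3561), lay 225 bp downstream of the nearest start and in the window of him-3.

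The 4 MEG genes, all on chromosome X, had 1 pooled peak in their promoter windows. It belonged to meg-1, with a signal of 6.34 (rank 14367) and 3.48 (rank 24940) in replicate 1. In the windows of meg-2 and meg-3 replicate 1 alone had a peak, at ranks 20374 and 27967, and meg-4 had none. No MEG gene had a promoter peak in replicate 2. The chromosome itself had fewer promoter peaks, since 34.7% of its 2731 coding genes had a pooled peak, beside 44.2% of the autosomal ones. Of the 30 autosomal members, 25 (83.3%) had one.

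PUF proteins repress mRNAs through sites in their 3'UTRs, and Nanos proteins are their partners. Of these 8 genes, 5 had a pooled peak and 3 were among the 3000 highest. The thresholded peak of nos-3, which takes part with FBF in the switch from sperm to oocytes, lay at chrII:9746149-9746504. Its signal was 25.1 (rank 535), with 16.65 (rank 685) in replicate 1 and 10.7 (rank 449) in replicate 2. The summit was 11 bp downstream of the start, in the 5'UTR, and in the window of the divergent Y53C12B.1, which begins 238 bp away. The peak of puf-3, at chrIV:13512163-13512518 and 179 bp upstream of the start, had 18.3 (rank 1070). It had 9.49 (rank 3049) in replicate 1 and 11.05 (rank 406) in replicate 2, so it stood higher in the list of replicate 2. It lay in an intron of afmd-2 and in that gene's window.

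The related puf-11, which acts with puf-3 in oocytes, had its best peak at chrIV:6421135-6421490, 272 bp upstream, with a signal of 13.8 (rank 2031). It had 12.3 (rank 1444) in replicate 1 and 3.05 (rank 10063) in replicate 2. The near-identical pair FBF-1 and FBF-2 keeps germline stem cells in the gonad. The best peak of fbf-2, 909 bp upstream in an intron of nspg-3, had 10.2 (rank 4530) and 11.85 (rank 1620) in replicate 1, with none in replicate 2. That of fbf-1 had 6.22 (rank 14949) with no overlapping peak in either replicate. Neither nos-1, nos-2 nor puf-8, another PUF gene, had a promoter peak in any list.

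The 4 genes grouped here as gonad RNA regulators, gld-1, gld-2, gld-3 and glp-1, had no promoter peak among the 3000 highest. GLD-1, a KH-domain repressor of translation, had a gene whose best promoter peak had 8.92 (rank 6526) in coding sequence of T23G11.4, with 11.4 (rank 1809) in replicate 1 and none in replicate 2. The cytoplasmic poly(A) polymerase gene gld-2 had 6.61 (rank 13151), and no replicate peak overlapped it. The summit lay in an intron of gld-2, 722 bp upstream of the nearest of the gene's 6 annotated starts. Elsewhere in the windows of gld-2, replicate 2 had a peak of 6.17 (rank 1993) 49 bp upstream of the nearest start. Replicate 1 had one of 3.40 (rank 25700) 32 bp downstream of the nearest start. Its partner gld-3 had 6.01 (rank 15928), with 5.12 (rank 13815) in replicate 1 and 2.86 (rank 11202) in replicate 2, and shared the peak with T07F8.4. No promoter peak was found in any list for glp-1, which encodes the Notch receptor of the germline stem cells.

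The replicates were also read apart, by the best peak of each one's own list in the window, whether or not it overlapped the pooled peak. Replicate 1 had a promoter peak for 26 of 34 members (76.5%), beside 42.1% of coding genes, and replicate 2 for 17 (50%), beside 29.9%. Both lists had one for 16 members (47.1%), beside 18.6% of coding genes. Of the 12 members among the 3000 highest pooled peaks, 11 had that peak overlapped in both replicates, the exception being oma-1. Among each list's own 550 highest peaks were promoter peaks of 3 members in replicate 1 (8.82%, beside 2.71% of coding genes) and of 5 in replicate 2 (14.7%, beside 2.28%). Both had cgh-1 and mex-1. Replicate 1 added spn-4, and replicate 2 added glh-2, nos-3 and puf-3.

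**Figure D3:**
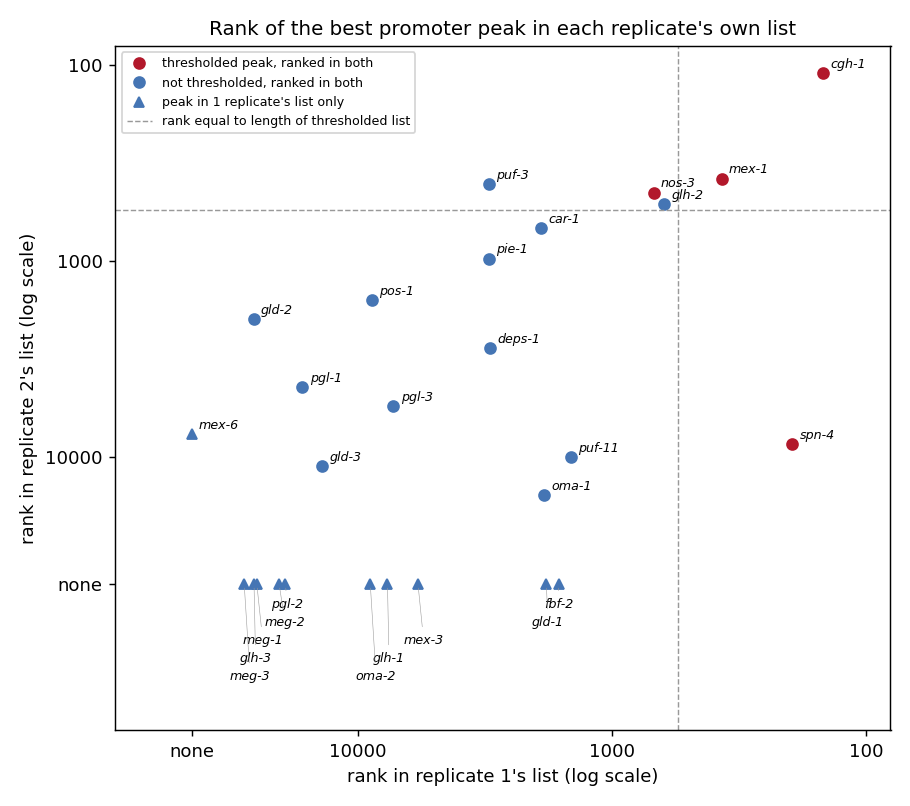
Rank of the highest peak in the promoter window in the list of replicate 1 (x axis) and of replicate 2 (y axis), both on log scales with high ranks to the right and top, and triangles for genes with a peak in 1 list only. Dashed lines mark rank 550. Only cgh-1 and mex-1 lie beyond both lines, while spn-4 ranks 195 in replicate 1 and 8650 in replicate 2.

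The plot of replicate ranks takes the highest peak anywhere in the window, so a gene's point can come from a different place in each replicate. This was so for car-1, whose highest replicate 2 peak ranked 682 and lay 239 bp downstream of the start, and for mex-1 and pie-1 among others. Of the 26 best pooled peaks, 22 were overlapped by a peak of replicate 1, 15 by one of replicate 2 and 14 by both. The same overlaps were not counted over all coding genes, so these counts do not set the members apart.

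The members' best summits were placed by the nearest start of their gene. The window reaches 1000 bp upstream and 300 bp downstream, so most of it is upstream by construction. Of 26 summits, 21 lay upstream and 5 downstream, and 4 lay within 100 bp of the start. Shares over all coding genes were not computed for these counts. At least 500 bp upstream lay 10 of the 26 (38.5%, beside 29% of coding genes with a peak). The median was 382 bp upstream, against 261 bp for coding genes. By annotation, 13 summits were intergenic, 4 in introns, 3 in coding sequence, 4 in 5'UTRs and 2 in 3'UTRs. These places were not counted over all coding genes. The best peak was shared with the window of another coding gene by 9 members, and 27.8% of coding genes with a peak shared theirs. The gene's own start was the nearest coding start for 20 of 26, a count not made over all coding genes.

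**Figure D4:**
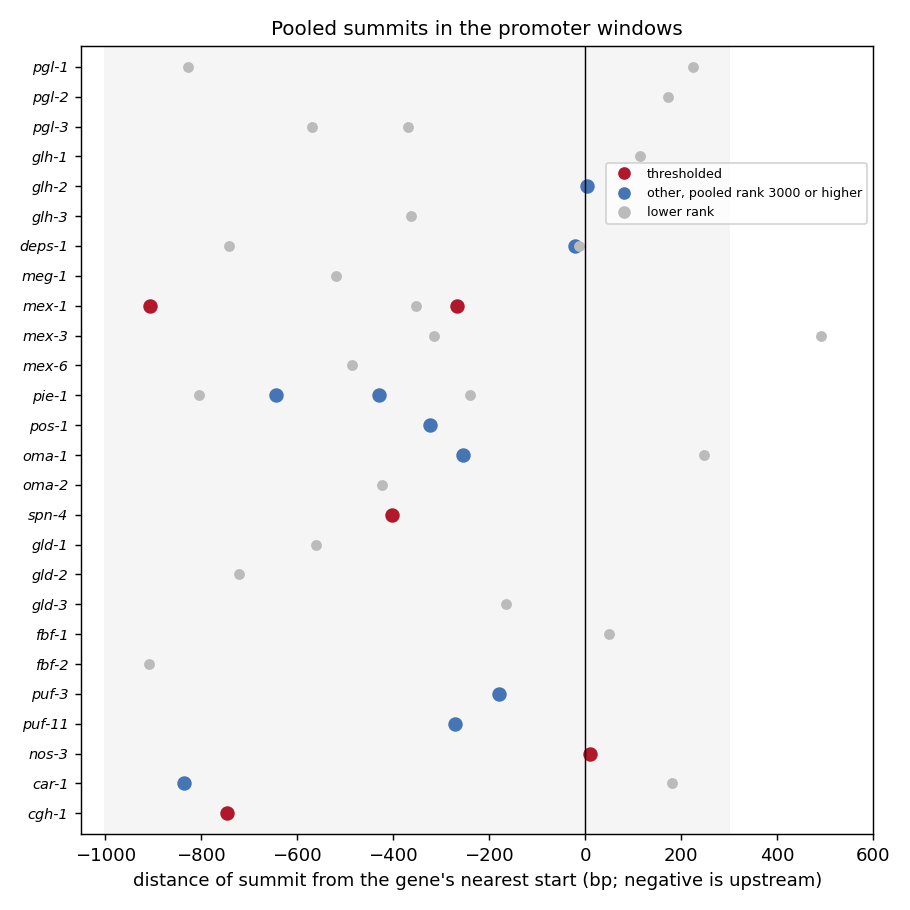
Distance of each pooled promoter summit from the nearest start of its gene (x axis, bp, negative is upstream), 1 row per gene, with red for thresholded peaks, blue for others among the 3000 highest and grey for lower ranks. The grey band spans 1000 bp upstream to 300 bp downstream of a start. A point beyond it lies in the window of another start of that gene, and summits within 100 bp of the start belong to nos-3, glh-2, deps-1 and fbf-1.

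The plot of summit positions shows 1 summit for 18 of the 26 genes and several for 8, among them pie-1, mex-1 and deps-1. Repeated sequence limits what short reads can show in some windows. The 36-base strings read were those of the best peak's interval for the 26 members with a pooled peak. For the 8 without one, those of the promoter window were read. All of them occurred once in the genome for 29 of 34 members. The exceptions were the peak intervals of glh-1 (40.5% unique), pos-1 (85.7%) and fbf-1 (92.2%) and the windows of glh-4 (61.1%) and meg-3 (98.7%). The effect of this on their peaks was not tested.

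E2F strings were sought as TTTCCCGC, TTTCGCGC, TTTGCCGC and TTTGGCGC on both strands, within 100 bp of the best summit. They matched at 5 of 26 members (19.2%), namely cgh-1, glh-2, puf-3, puf-11 and gld-3, beside 486 of 8580 coding genes with a peak (5.66%) and 77 of 550 thresholded peaks (14%). Within 50 bp the shares were 7.69% of members and 3.31% of coding genes, and within 200 bp 26.9% and 8.75%. Over whole promoter windows of 1301 bp per start, a choice made after values were seen, 16 of 34 members (47.1%) and 20.2% of coding genes had a match. These included 4 of the 8 members without a peak (glh-4, meg-4, glp-1 and puf-8).

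CHR-like strings, TTTGAA and TTCGAA on both strands, matched within 100 bp at 15 of 26 members (57.7%) and at 57.7% of coding genes with a peak. Within 50 bp the shares were 26.9% of members and 35.2% of coding genes, and within 200 bp 80.8% and 80.7%. Over the whole window they matched in 34 of 34 members and in 99.2% of coding genes. A match is a string of letters and was not tested as a binding site.

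Some members had a higher peak inside the gene than at its promoter. With the thresholded list read from the promoter window to the gene's end, a rule added after values were seen, 7 of 34 members (20.6%) had a peak, beside 3.13% of coding genes. The 3 added were pgl-1, gld-1 and car-1. For car-1 the peak lay in the 3'UTR 1510 bp downstream of the start, with a signal of 42.5 (rank 184), 35.9 (rank 148) in replicate 1 and 9.37 (rank 637) in replicate 2. For gld-1 it lay in the 3'UTR 2138 bp downstream, with 37.7 (rank 236), 36.55 (rank 144) in replicate 1 and 6.17 (rank 1990) in replicate 2, and in the promoter window of T23G11.10. For pgl-1 it lay in coding sequence at chrIV:6975085-6975440, 1880 bp downstream, with 26.0 (rank 497), 12.45 (rank 1403) in replicate 1 and 4.29 (rank 5037) in replicate 2. All 3 were thus above the same genes' promoter peaks in the pooled list.

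In a second list of 40 genes related to RNA regulation, not chosen as germline genes alone, 4 (10%) had a thresholded promoter peak. A promoter peak among the 3000 highest was found for 14 (35%), and any pooled one for 30 (75%). A replicate 2 promoter peak was found for 25 of them (62.5%), and a thresholded summit between the promoter window and the gene's end for 5 (12.5%). The thresholded ones were ifet-1, a translational repressor related to 4E-T (77.7, rank 68, shared with rps-1), the RNA-binding larp-1 (60.3, rank 95, shared with wip-1), the ataxin-2 relative atx-2 (45.5, rank 167, shared with ecps-1) and daz-1 of the DAZ family (35.96, rank 264). After these came puf-9, lst-1, pptr-1, cey-2, ife-1, cpb-3, znfx-1, patr-1, ncl-1 and ife-3, with signals of 24.7 to 12.3. An E2F match lay within 100 bp of the best summit in 0 of the 30 related genes with a peak, beside 5 of the 26 members.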

How the data were processed

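LIN-35 ChIP-seq peaks came from 2 biological replicates in 1 group. The deposited lists give the authors' signal for each peak, and they also hold the −log10 of a q value, which was not used for ranking. Per the deposited text notes, replicate and pooled lists came from alignments set against a control library, and IDR applied to them gave the thresholded list. Aligner, caller, tool versions and IDR cutoff were not given in the sources used here. Because the lists hold no reads, depth is unknown.

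The 4 ce11 lists were joined to Ensembl release 115 gene models for WBcel235 with Python 3.11.15, numpy 2.4.6 and matplotlib 3.10.9. Lists on ce10 were not used, since the annotation is of the other build. Coordinates are 1-based. Equal signals shared a rank. Each summit counted for every gene with a start within reach. Background shares run over all protein-coding genes. The members and lists were chosen with earlier results of these data known, so no set test was made. Named genes are all members, coding neighbours sharing a best peak among the 3000 highest, related genes among the 3000 highest, and the 3 transgene genes. Genes in whose introns or exons a summit lay, and neighbours at lower ranks, were named after values were seen. Alternatives were other windows, interval overlap, nearest starts, stricter and looser thresholds, each replicate alone and other motif windows. The code was checked on simulated data.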

Additional observations from a re-analysis of the deposited data

How the results depend on the processing

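Over 7 counts, 35 alternative values were computed, of which 26 stayed within 1.5 times the count. The members with a thresholded promoter peak numbered 4, against 1 (cgh-1) in the 275 highest thresholded peaks and 7 in the 1000 highest pooled peaks. The 550 highest peaks by signal of each replicate's own list, taken without IDR, gave 3 members in replicate 1 and 5 in replicate 2. A window of 500 bp upstream to 100 bp downstream gave 17 members with a pooled peak in place of 26, and 10 with a peak in both replicates in place of 16. Giving each summit only to the nearest coding start also gave 10 with a peak in both. Shares over all coding genes were not computed for other promoter windows, for nearest starts or for the 275 highest peaks. Nor were they computed by replicate for motif matches or for the 3000 highest peaks. When a replicate was left out, members with a promoter peak numbered 17 to 26, members among the 3000 highest 10 to 10, and the median rank was 1993 to 4419, in lists of unequal length. It was 1964 with the narrower window and 3113 with one of 2000 bp upstream to 500 bp downstream, against 3194. E2F matches fell to 2 within 50 bp of the summit, and CHR-like matches to 7. By replicate, E2F matches were found for 6 of 26 members with a peak in replicate 1 and 3 of 17 in replicate 2. CHR-like matches were found for 15 and 11 of them. The narrower windows hold fewer summits and bases by construction; the cause of the other shifts was not tested. No paired analysis was possible because there is 1 group. The peak lists give no depth, and 9 best peaks lie in the windows of several coding genes.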

Other observations

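The genes whose sequences the transgene carries were kept apart. The promoter of mex-5, which drives the fusion and encodes a zinc finger protein like MEX-6, had a thresholded peak of 36.7 (rank 251) at chrIV:13353311-13353666, 234 bp upstream of the start and in the window of rec-8 too. It had 15.8 (rank 776) in replicate 1 and 19.4 (rank 92) in replicate 2, against a pooled rank of 3576 for the best peak of mex-6. The promoter of lin-35 had a thresholded peak of 34.85 (rank 277), shared with vps-51, with 20.9 (rank 410) in replicate 1 and 14.8 (rank 190) in replicate 2. For unc-119 the best peak had 7.35 (rank 10456). Where the transgene carries a sequence, reads of its copy and of the endogenous locus cannot be told apart in these lists. The strain description names the mex-5 promoter, the fusion and the lin-35 3'UTR, and does not name the lin-35 promoter. The lin-35 summit lay 184 bp upstream of the lin-35 start, in intergenic sequence.

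Further members had a higher pooled peak within the gene than in the promoter window, below the threshold. In puf-11 it had a signal of 17.5 (rank 1166) in coding sequence 1509 bp downstream of the start, and in glh-1 it had 14.2 (rank 1892) 1134 bp downstream. In fbf-1 it had 12.6 (rank 2586) in the 3'UTR 2468 bp downstream. In gld-2 it had 12.2 (rank 2813) in the 3'UTR, 4335 bp downstream of the nearest of the gene's starts. These were picked out after their values were seen.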
